A study of Bos taurus with 33 samples.

Results

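A set of 10 transcription factors and coregulators tied to the response of the follicle to the luteinizing hormone (LH) surge were looked up by symbol in the transcript tables of bovine cumulus cells (CC) and oocytes: FOS, JUN, EGR1, CEBPA, CEBPB, RUNX1, RUNX2, NR4A1, NRIP1 and GATA4. Of these, 8 had a row in both tables, out of 16244 genes in the CC table and 16279 in the oocyte table. CEBPA and CEBPB had no row under their symbols and were not analysed here. The 8 genes were joined between the tables by Ensembl identifier.

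Granulosa cells and CC respond to the LH surge in waves. LH receptors on the follicle wall raise cAMP and activate mitogen-activated protein kinases, and epidermal growth factor-like ligands such as EREG carry the signal to the CC. Immediate early genes (FOS, JUN, EGR1 and NR4A1) are transcribed first and for a short time, and later factors such as RUNX1, RUNX2 and the coregulator NRIP1 help to switch on genes of cumulus expansion, steroidogenesis and ovulation. GATA4 is a lineage factor of granulosa cells that is already present in the growing follicle.

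The study asked how transcripts of the cumulus-oocyte complex differ among pre-ovulatory follicles of different maturity in suckled beef cows. All cows received GnRH on day -9 and prostaglandin F2α on day -2. Cows that had not shown estrus received a second GnRH injection on day 0 and were classified as small (largest follicle up to 11.7 mm) or large (from 12.7 mm). Cows of the spontaneous classification (11.7 to 14.0 mm) showed estrus, received no second GnRH injection and relied on their own gonadotropin surge. Complexes were aspirated about 20 h after GnRH or estrus in the sample characteristics, and about 23 h in the protocol, and no group was collected before the surge, so that the change of a transcript over the surge was not measured. Each of the 33 libraries came from 4 oocytes, or from the CC of 4 complexes, with 6 small, 6 large and 5 spontaneous CC pools and 6 small, 6 large and 4 spontaneous oocyte pools. According to the authors, the oocyte pools came from the same complexes as CC pools, so the cell types are not independent samples. Small and large follicles both came from cows without estrus that received GnRH on day 0, and were classified by follicle size. Between these and the spontaneous classification GnRH, estrus and the size range differed together, so their parts cannot be told apart. The labels do not say which pools shared a collection group or a sequencing run.

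The unit is CPM, the reads of a gene per 1000000 reads on all genes of the pool. CC pools held 1911600 to 5772431 reads and oocyte pools 7664375 to 17934916, so 3 reads, the limit that a count of 0 allows, were worth up to 1.57 CPM in a CC pool and 0.391 CPM in an oocyte pool, for counting error only. From 12.6 to 44.0% of CC reads fell on the 13 mitochondrially encoded genes, with the highest share in small replicate 3, which also had the fewest reads. In oocyte pools the share was 0.85 to 5%. Over all transcripts tested, the median log2 fold change was 0.16 in CC from small to spontaneous pools and 0.11 from large ones, and 0.01 in both after median-of-ratios scaling. The 12 markers of cumulus and granulosa cells summed to 5202 to 12130 CPM in CC pools and to 216 to 833 CPM in oocyte pools. Of the 12 oocyte markers, 5 had a row in the CC table, and they summed to 85.3 to 354 CPM in small CC pools (median 237.5), 46.6 to 174.5 CPM in large ones (median 114) and 86.8 to 189 CPM in spontaneous ones (median 164). Nearly all of this was KIT, a receptor kinase, at 39.9 to 350 CPM, and GDF9, NLRP5, ZP2 and ZAR1 each stayed at or below 3.92 CPM in every CC pool. KIT was also the 1 marker of that list tested in CC, and large pools were lower than small ones by a log2 fold change of -0.88, with an unadjusted limma p under 0.05. White blood cell markers summed to 57.4 to 301 CPM in small CC pools, 50.6 to 292 CPM in large ones and 83.7 to 377 CPM in spontaneous ones, and the part of either marker list in the results was not tested.

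Of the 8 genes, the 6 genes FOS, RUNX2, GATA4, NRIP1, EGR1 and JUN were higher in every CC pool than in any oocyte pool. How many of the 14980 genes in both tables part in this way was not counted, so the separation is not read as a trait of these factors. The tables were scaled separately, so levels are set side by side without a test. CPM are taken over all reads, with a larger mitochondrial share in CC, which lowers the CPM of other genes there. Ratios between the cell types were not corrected for this. FOS, a subunit of the AP-1 factor, ranged from 76.9 to 264 CPM in CC (median 141, n = 17) and from 0 to 13.3 CPM in oocytes (median 0.801, n = 16), and its mean was 51.4 times as high in CC. The mean of RUNX2, a runt-domain factor known from bone and from the luteinizing granulosa cell, was 42.5 times as high in CC, at 222 against 5.21 CPM. GATA4 was 11.5 times and NRIP1, a coregulator of nuclear receptors that ovulation requires, 11.3 times as high in CC. EGR1, a zinc finger factor, was 6.39 times as high, and JUN, the partner of FOS in AP-1, 2.94 times. For GATA4 the ranges only just parted, with 90.0 CPM in the lowest CC pool and 89.9 CPM in the highest oocyte pool. RUNX1 was low in both, at 3.12 to 17.6 CPM in CC and 0 to 11.6 CPM in oocytes, and the ranges overlapped.

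NR4A1, an orphan nuclear receptor of the immediate early class, went the other way. It ranged from 2.09 to 24.8 CPM in CC (median 5.69, n = 17) and from 85.6 to 217 CPM in oocytes (median 149, n = 16), and its mean was 17.1 times as high in oocytes. The lowest oocyte pool was above the highest CC pool. The CC values rest on 6 to 98 reads a pool and the oocyte values on 1135 to 2655. In bulk samples such as these, fewer cells of a type and less RNA per cell cannot be told apart.

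**Figure D1:**
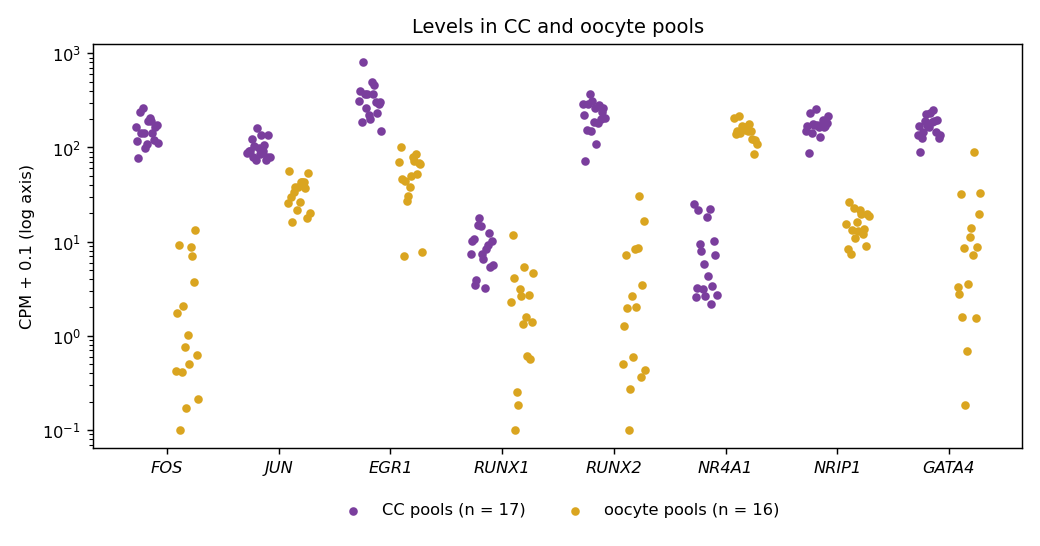
Levels of the 8 genes (CPM + 0.1, log axis) in each of 17 CC pools and 16 oocyte pools, 1 point a pool. The oocyte points of NR4A1 lie above all its CC points, those of RUNX1 overlap, and those of the other 6 genes lie below.

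In CC, 0 of the 8 genes passed the nominal threshold of limma (p of 0.01 or less, moderated test on log2(CPM + 1)) in any comparison of follicle classifications. Over all 9712 transcripts tested in CC, 0.813% passed between small and large, 2.38% between small and spontaneous and 1.66% between large and spontaneous pools. At an unadjusted p under 0.05, GATA4 was the 1 gene that passed from small to large (4% of all transcripts) and the 1 that passed from large to spontaneous (7.07%), and 0 passed from small to spontaneous (8.55%). In no comparison did the groups of a gene fail to overlap, beside 0.247, 1.16 and 0.865% of transcripts whose groups did not. On the recovered reads, edgeR's quasi-likelihood test called 0 genes in each comparison, beside 0.649, 1.32 and 1.31% of transcripts. DESeq2 called 1 in each, beside 1.15, 2.23 and 2.05% of transcripts, namely GATA4 from small to large and from large to spontaneous and EGR1 from small to spontaneous. The 95% intervals held no change for 7, 8 and 7 of the 8 genes, with arms of 0.35 to 1.18 on the log2 scale to either side of the estimate, so that differences inside those widths were not detectable with these pools. The median log2 fold change of the 8 genes was 0.04 from small to large pools, 0.03 from small to spontaneous ones and -0.13 between large and spontaneous ones, beside 0.05, 0.16 and 0.11 over all transcripts.

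The immediate early genes FOS, JUN and EGR1 were found at 73.2 CPM or more in every CC pool, and NR4A1 at 24.8 CPM or less. EGR1 had 188 to 801 CPM in small CC pools (median 339, n = 6), 203 to 499 CPM in large ones (median 371, n = 6) and 303, 235, 288, 307 and 149 CPM in the 5 spontaneous pools. The spontaneous pools lay in the lower part of the range and overlapped both induced groups, and a single small pool, replicate 4, stood far above all others. The log2 fold change was -0.49 between small and spontaneous pools (SE 0.292, limma p = 0.111, adjusted p = 0.682, exact permutation p = 0.186). It was -0.43 between large and spontaneous pools (SE 0.248, limma p = 0.0996, adjusted p = 0.75, exact permutation p = 0.16). Without small replicate 4 the difference from small pools was -0.25, and DESeq2, which gave -0.72 with all pools, called it. Without spontaneous replicate 5, the lowest spontaneous pool, the difference was -0.31 from small pools and -0.25 from large ones.

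FOS had 76.9 to 264 CPM in small CC pools (median 152), 97.5 to 206 CPM in large ones (median 166) and 141, 120, 166, 175 and 112 CPM in spontaneous pools. The spontaneous values fell within the range of the small ones, and exact permutation p-values were 0.764 for small to large, 0.502 for small to spontaneous and 0.563 for large to spontaneous. JUN, the steadier subunit of AP-1, had 79.8 to 122 CPM in small (median 91.7), 73.2 to 161 CPM in large (median 95.3) and 107, 73.5, 78.2, 135 and 79.1 CPM in spontaneous pools. Its groups overlapped throughout, with exact permutation p-values of 0.485, 0.922 and 0.507. The SD of JUN within classifications was 0.35 on the log2 scale, beside 0.50 for FOS, 0.58 for EGR1 and a median of 0.48 over all transcripts tested.

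NR4A1 was the most variable of the 8 genes in CC. Small pools had 24.8, 2.46, 3.14, 21.6, 9.41 and 7.80 CPM, large pools 3.01, 5.69, 2.55, 18.2, 4.26 and 22.1 CPM, and spontaneous pools 2.09, 3.32, 10.2, 7.08 and 2.65 CPM. The 2 highest small and the 2 highest large pools were above every spontaneous pool, and the low pools of all classifications overlapped. The log2 fold change from small to spontaneous was -0.84 (SE 0.53, limma p = 0.131, adjusted p = 0.709; exact permutation p = 0.217). Its SD within classifications was 1.08 on the log2 scale, larger than that of 97.0% of transcripts.

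Among the later factors, RUNX2 had 71.7 to 367 CPM in small CC pools (median 253), 108 to 309 CPM in large (median 183) and 283, 200, 237, 262 and 207 CPM in spontaneous pools. The spontaneous pools were close together inside the wide ranges of both other groups, and the log2 fold change from large to spontaneous was 0.33 (SE 0.226, limma p = 0.167, adjusted p = 0.77, exact permutation p = 0.329). RUNX1, the runt-domain factor that is induced in ovulatory follicles, had means of 8.37 ± 4.45 CPM over small pools (SD, n = 6), 9.58 ± 5.43 CPM over large (n = 6) and 8.45 ± 3.02 CPM over spontaneous ones (n = 5). NRIP1 had 160 ± 48.2, 179 ± 41.2 and 185 ± 19.6 CPM in the same order. Neither differed beyond its spread, with exact permutation p-values of 0.307 or more.

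GATA4 showed the clearest difference in CC. Small pools had 135, 169, 90.0, 125, 147 and 191 CPM, large pools 227, 172, 163, 232, 187 and 251 CPM, and spontaneous pools 191, 146, 196, 126 and 136 CPM. Large pools were mostly above the others, but the lowest large pool was below the highest small pool, so the groups overlapped. The mean was 143 ± 35.2 CPM over small pools (SD, n = 6), 205 ± 36.1 CPM over large (n = 6) and 159 ± 32.3 CPM over spontaneous ones (n = 5). From small to large the log2 fold change was 0.54 (SE 0.195, 95% interval 0.13 to 0.95, limma p = 0.012, adjusted p = 0.999), and an exact permutation test gave p = 0.0195 (0.312 after adjustment over 48 tests). From large to spontaneous it was -0.37 (SE 0.171, limma p = 0.0456, adjusted p = 0.699; exact permutation p = 0.0606).

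The small-to-large difference of GATA4 lay just outside the threshold and passed under several alternatives. It passed after median-of-ratios scaling (0.49), in a fit of all 3 classifications (0.54), in DESeq2 (0.48), and without small replicate 6 (0.63), large replicate 2 (0.59) or large replicate 3 (0.60). It did not pass when CPM were recomputed without the mitochondrially encoded genes (0.43) or without small replicate 3 (0.41). That pool, with 44.0% mitochondrial reads, was the lowest of the 17 CC pools for GATA4, FOS, RUNX2 and NRIP1.

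**Figure D2:**
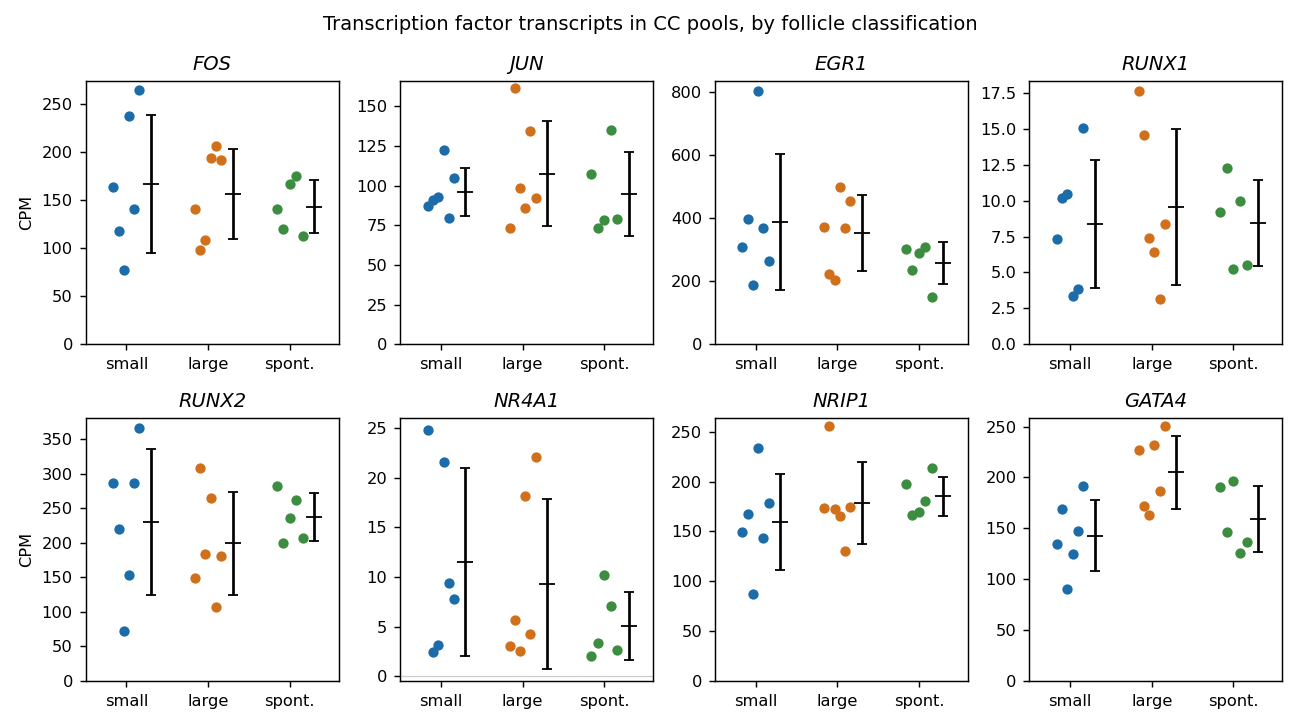
CPM of each gene in CC pools of small (n = 6), large (n = 6) and spontaneous (spont., n = 5) follicles, 1 point a pool, with the mean and SD beside the points. Vertical scales differ between genes. Large pools of GATA4 are centred at 205 CPM against 143 CPM for small, and the points of the classifications overlap for every gene.

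In oocytes, 7 of the 8 genes could be tested, since RUNX1 reached 5 CPM in only 2 of 16 pools. Of these, 0 passed limma's nominal threshold in any comparison, beside 0.655% of the 10076 transcripts between small and large, 0.774% between small and spontaneous and 0.943% between large and spontaneous pools. At an unadjusted p under 0.05 there were 0, 1 and 1 genes, beside 4.11, 4.51 and 4.87% of transcripts, and the gene was NR4A1. Both edgeR and DESeq2 called NR4A1 in each comparison with spontaneous pools and 0 genes from small to large. Over all transcripts edgeR called 0.506, 0.556 and 0.903% and DESeq2 1.13, 1.21 and 1.8%, in the same order of comparisons.

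NR4A1 was higher in all 12 oocyte pools from induced follicles than in all 4 spontaneous pools. Small pools had 206, 139, 148, 217, 142 and 169 CPM, large pools 161, 166, 154, 148, 178 and 149 CPM, and spontaneous pools 123, 85.6, 121 and 109 CPM. The groups did not overlap in either comparison with spontaneous pools, which held for 0.903% of all transcripts against small pools and 0.913% against large. From small to large, where 0.258% of transcripts did not overlap, each of the 8 genes overlapped. Means were 170 ± 34.0 CPM over small pools (SD, n = 6), 159 ± 11.3 CPM over large (n = 6) and 110 ± 17.1 CPM over spontaneous ones (n = 4).

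The log2 fold change of NR4A1 was -0.62 from small to spontaneous (SE 0.225, 95% interval -1.08 to -0.16, limma p = 0.0102, adjusted p = 0.987, exact permutation p = 0.00952). It was -0.55 from large to spontaneous (SE 0.198, 95% interval -0.95 to -0.14, limma p = 0.0103, adjusted p = 0.968, exact permutation p = 0.00952). That permutation p, two-sided, is the smallest that 6 against 4 pools can give, and was 0.229 after adjustment over the 48 tests. Both comparisons use the same 4 spontaneous pools, so they are not independent of each other. Small and large oocyte pools overlapped (exact permutation p = 0.474).

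Both NR4A1 differences lay at the edge of the threshold and kept their sign in every alternative. From small to spontaneous the fold change ranged from -0.68 to -0.51 with single pools left out and passed without small replicate 2 (-0.67) or small replicate 5 (-0.67). From large to spontaneous it ranged from -0.61 to -0.43 and passed without spontaneous replicate 1 (-0.61). Within classifications NR4A1 had an SD of 0.22 on the log2 scale in oocytes, larger than that of only 3.76% of transcripts.

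EGR1 and JUN were present in every oocyte pool. EGR1 had 6.87 to 102 CPM in small pools (median 45.4), 30.4 to 84.6 CPM in large ones (median 60.8) and 51.6, 68.1, 66.9 and 7.64 CPM in spontaneous pools. JUN had 33.1 ± 13.3, 35.8 ± 9.40 and 32.3 ± 16.8 CPM in small, large and spontaneous pools (SD), and NRIP1 15.5 ± 7.69, 15.5 ± 4.36 and 15.1 ± 4.96 CPM. The groups overlapped for all 3 genes, with exact permutation p-values of 0.533 or more.

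GATA4, RUNX2 and FOS were low in most oocyte pools and high in a few. GATA4 reached 31.7 CPM in small replicate 3, 89.9 CPM in large replicate 6 and 32.5 CPM in spontaneous replicate 4, while its medians were 2.91, 9.07 and 14.2 CPM. RUNX2 reached 7.18 CPM in small replicate 3, 30.7 CPM in large replicate 6 and 16.3 CPM in spontaneous replicate 3, with medians of 0.794, 5.38 and 1.85 CPM. FOS reached 9.13 CPM in small replicate 3, 8.59 CPM in large replicate 5 and 13.3 CPM in spontaneous replicate 2.

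Cumulus and granulosa markers were also uneven among oocyte pools. Their sum was 712 CPM in small replicate 3, 833 CPM in large replicate 6 and 714 CPM in spontaneous replicate 3, against 216 to 512 CPM in the other pools. TNFAIP6, a gene of the expanding cumulus matrix, had 57.2, 116 and 37.8 CPM in those 3 pools. Over all 16 oocyte pools TNFAIP6 ranged from 0.594 to 116 CPM, INHBA from 1.81 to 115 CPM and GJA1 from 14.0 to 106 CPM, against at least 880, 244 and 278 CPM in CC. Other markers of the list went differently. HAS2 had 132 to 248 CPM in oocytes (median 186) and a lower median in CC, 50.5 CPM (19.4 to 176 CPM). FSHR had 0 CPM in small replicate 3, 0.0845 CPM in large replicate 6 and 1.21 CPM in spontaneous replicate 3. It was highest in spontaneous replicate 4, at 8.81 CPM. FOXL2, a granulosa factor, was listed at 0 in all oocyte pools but small replicate 3, at 0.391 CPM, and was also near 0 in CC, with a median of 0.363 CPM and a highest value of 1.05 CPM. The part of these markers in the levels of GATA4, RUNX2 and FOS was not tested. The log2 fold change of RUNX2 from small to large oocyte pools was 1.496 (SE 0.747, limma p = 0.0549, and 0.0193 without small replicate 3, adjusted p = 0.997, exact permutation p = 0.0758). That of GATA4 from small to spontaneous was 1.23 (SE 0.862, limma p = 0.164, and 0.0432 without that pool, adjusted p = 0.987, exact permutation p = 0.381). With single pools left out, RUNX2 ranged from 1.01 to 1.89 and GATA4 from 0.71 to 1.97, and neither was called. RUNX2 reached 5 CPM in only 5 of 16 oocyte pools. Among them were large replicates 3, 5 and 6, at 8.24, 8.40 and 30.7 CPM, so the group where it was higher helped to admit it to the test.

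**Figure D3:**
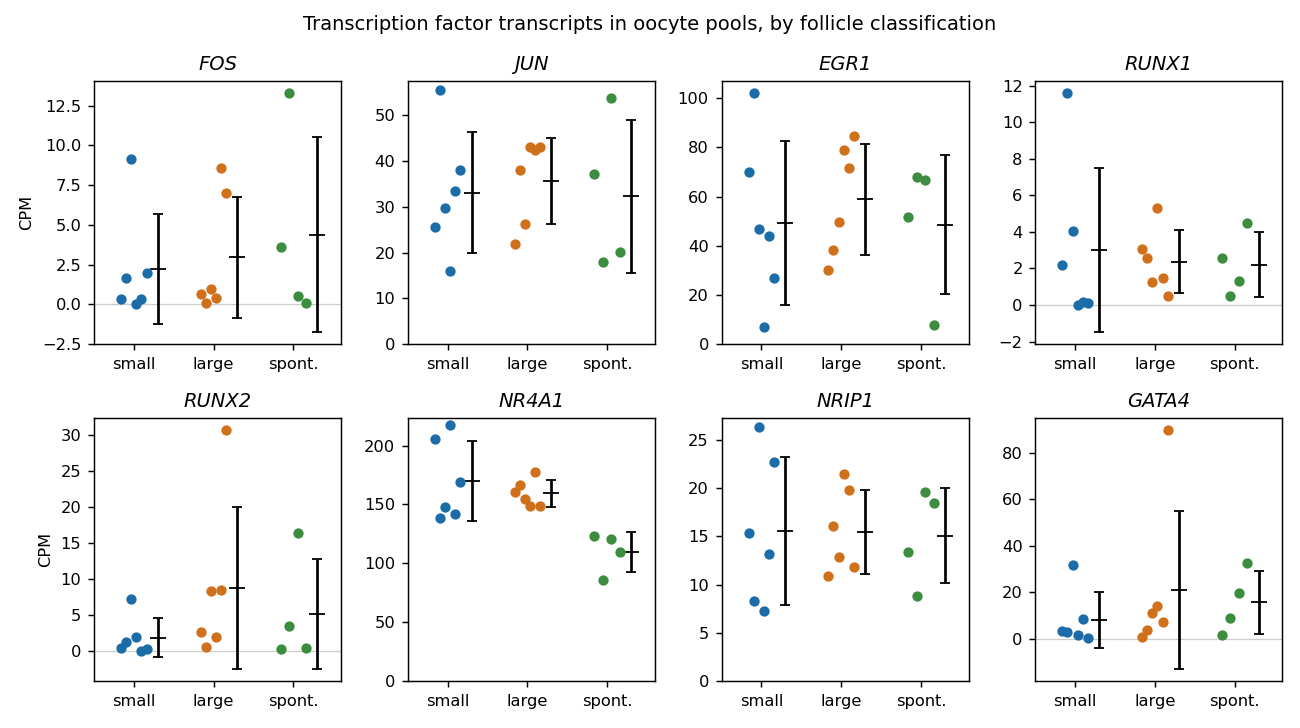
CPM of each gene in oocyte pools of small (n = 6), large (n = 6) and spontaneous (spont., n = 4) follicles, 1 point a pool, with the mean and SD beside the points. The 4 spontaneous points of NR4A1, from 85.6 to 123 CPM, lie below all 12 others, and GATA4, RUNX2 and FOS have single high pools.

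**Figure D4:**
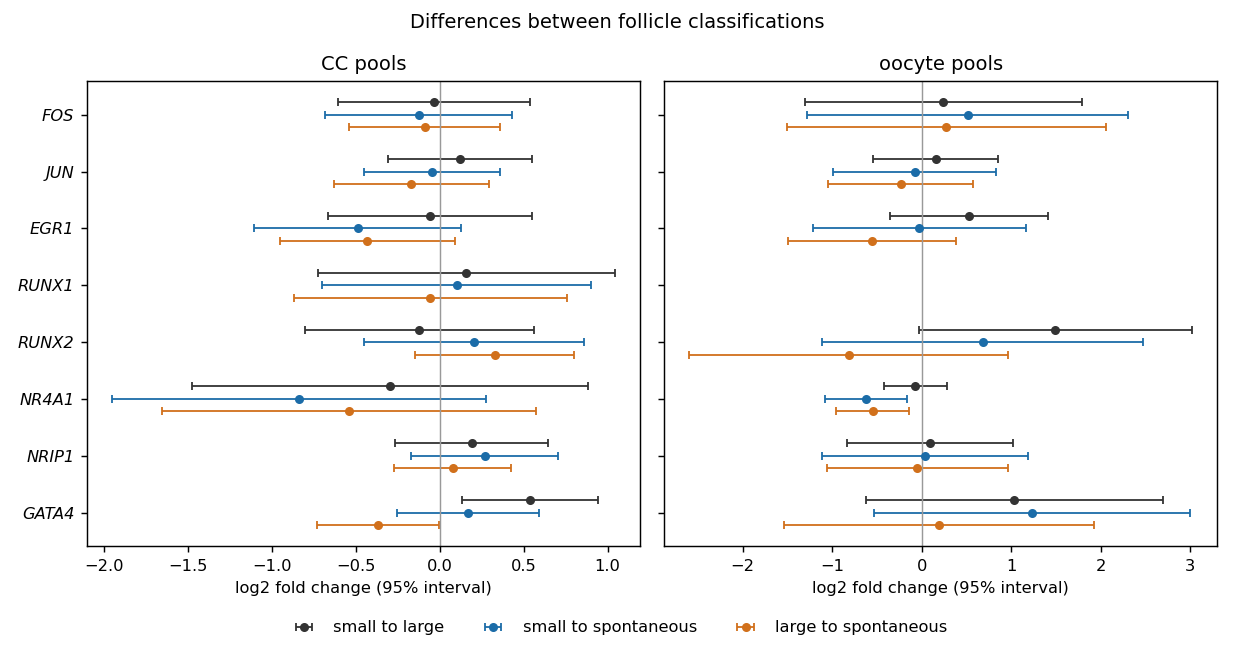
Log2 fold change of log2(CPM + 1) for each gene and comparison with its 95% interval from limma, in CC pools (left) and oocyte pools (right). Intervals clear of 0 are those of GATA4 in CC from small to large and from large to spontaneous, and those of NR4A1 in oocytes in both comparisons with spontaneous pools. RUNX1 was not tested in oocytes.

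The 8 genes were compared pairwise over the 17 CC pools, after the mean of each classification was subtracted from log2(CPM + 1). Of 28 pairs, 23 had a positive Pearson r, and 0 pairs had a permutation p under 0.05 after adjustment over the 28 pairs, for Pearson or Spearman. FOS and EGR1 had the highest, with r = 0.67 (permutation p = 0.0114, adjusted 0.283) and rho = 0.64 (permutation p = 0.0114, adjusted 0.32). Without the 2 pools farthest from the median of FOS, r was 0.82. The count of positive pairs fell to 16 of 28 after median-of-ratios scaling and to 18 of 28 without small replicate 3.

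Within classifications FOS and EGR1 had r of 0.53 over the 6 small pools, 0.90 over the 6 large pools and 0.83 over the 5 spontaneous pools. After median-of-ratios scaling the small pools gave 0.22 and all pools 0.56. NR4A1 had r = 0.62 with FOS (rho = 0.63, permutation p = 0.0217 and 0.0264, adjusted 0.283 and 0.37; 0.68 without the farthest pools). With EGR1 it had r = 0.56 (rho = 0.49, permutation p = 0.0385 and 0.0639, adjusted 0.283 and 0.447; 0.47 without the farthest pools). JUN had r of 0.15 with FOS, 0.07 with EGR1 and 0.02 with NR4A1, and differences between correlations were not tested. RUNX2 and NRIP1 had r = 0.60 (rho = 0.31, permutation p = 0.0605 and 0.27, adjusted 0.283 and 0.585), which fell to 0.05 without the farthest pools and so rested on them. FOS and GATA4 had r = 0.56 (rho = 0.50, permutation p = 0.0409 and 0.0595, adjusted 0.283 and 0.447; 0.21 without the farthest pools). RUNX2 and GATA4 had r = 0.55 (rho = 0.38, permutation p = 0.0521 and 0.149, adjusted 0.283 and 0.585; 0.24 without the farthest pools). Values of this size were thus not confined to pairs of immediate early genes. All pairs share libraries and their scaling, and the mitochondrial share of reads differed among these pools.

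**Figure D5:**
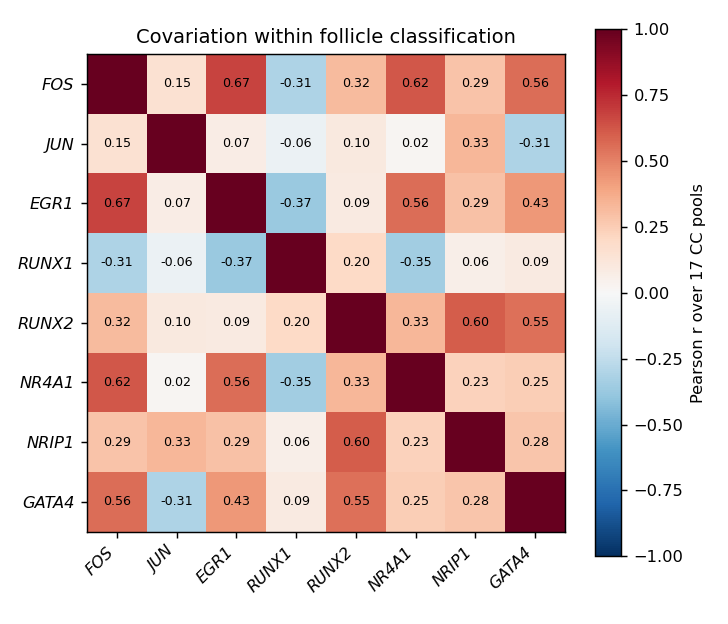
Pearson r of each pair of genes over 17 CC pools, on log2(CPM + 1) centred within follicle classification. FOS, EGR1 and NR4A1 have r from 0.56 to 0.67 with each other, whereas JUN has r from 0.02 to 0.15 with them. Other pairs reach similar values, among them RUNX2 and NRIP1 (0.60), FOS and GATA4 (0.56) and RUNX2 and GATA4 (0.55).

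Among all transcripts with a symbol, those most like each gene over the same 17 CC pools were SF3B3 (r = 0.93) and ATXN7L3B (0.92) for FOS, ZSWIM6 and ZBTB20 (both 0.90) for EGR1, COTL1 (0.90) and TMEM120A (0.88) for NR4A1, and GJA1 (0.81) and CAMSAP1 (0.80) for JUN. For the later factors they were CFAP126 (0.89) and FOXJ3 (0.88) for RUNX2, TLE4 (0.82) and DCTPP1 (0.80) for RUNX1, ARHGAP12 (0.90) and TTC17 (0.89) for NRIP1, and SKIL and TRAPPC2L (both 0.86) for GATA4. Each is the highest or second highest among the tested transcripts that have a symbol and is given as a description.

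Other immediate early genes, a list of 25 that holds FOSB, JUNB, ATF3, EGR2, NR4A2, NR4A3, IER2, DUSP1 and others, had no call either in CC or in oocytes. Of its members, 17 were tested in CC and 14 in oocytes, and 0 passed limma's threshold in any comparison. Over all transcripts 0.813, 2.38 and 1.66% passed in CC and 0.655, 0.774 and 0.943% in oocytes, in the order of comparisons used above. At an unadjusted p under 0.05 there were 0 as well, beside 4, 8.55 and 7.07% in CC and 4.11, 4.51 and 4.87% in oocytes. With so few genes, 0 calls at these shares says little about the list. The list's median log2 fold change in CC was 0.09 from small to large, 0.05 between small and spontaneous and 0.01 between large and spontaneous pools, beside 0.05, 0.16 and 0.11 over all transcripts.

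Upstream kinases and activators had 3 calls in CC, all higher in the second group. Of 23 genes tested, RPS6KA3 and MAP2K1 rose from small to spontaneous pools and MKL1 from small to large, and 0 were called from large to spontaneous. Over all transcripts the share called was 0.813% from small to large, 2.38% from small to spontaneous and 1.66% between large and spontaneous pools, and 67 of 79, 221 of 231 and 141 of 161 of those calls were higher in the second group. The list's median log2 fold change was 0.20, 0.19 and 0.06 in the same order, beside 0.05, 0.16 and 0.11 over all transcripts. RPS6KA3, a kinase of the ribosomal S6 family that acts below ERK, had 151 to 186 CPM in small pools (mean 172, n = 6) and 234, 246, 246, 310 and 247 CPM in spontaneous pools. Every spontaneous pool was above every small pool, which held for 1.16% of transcripts in this comparison. The log2 fold change was 0.57 (SE 0.147, limma adjusted p = 0.295).

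The call of RPS6KA3 held in all 11 fits with a pool left out, and was lost after median-of-ratios scaling, without mitochondrially encoded genes (0.39) and in edgeR. MAP2K1, a kinase that activates ERK, rose by 0.55 (SE 0.187, limma adjusted p = 0.418), and MKL1, a coactivator of serum response factor, by 0.69 (SE 0.24, limma adjusted p = 0.999). The call of MAP2K1 was lost in 9 of 11 fits with a pool left out (0.47 to 0.64) and that of MKL1 in 9 of 12 (0.55 to 0.84). Family members and partners of the factors, among them GATA6, ZFPM2, CBFB, NR5A2 and TLE1, had 0 calls among 18 genes tested in CC and 0 among 18 in oocytes. Over all transcripts, 0.813, 2.38 and 1.66% were called in CC and 0.655, 0.774 and 0.943% in oocytes, in the order of comparisons above. At an unadjusted p under 0.05 there were 1, 2 and 1 genes in CC, beside 4, 8.55 and 7.07%, and 0 in oocytes, beside 4.11, 4.51 and 4.87%. The list's medians were 0.16, 0.15 and 0.002 in CC, beside 0.05, 0.16 and 0.11, and 0.20, 0.31 and -0.03 in oocytes, beside 0.05, 0.05 and 0.01.

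Genes that the surge is known to induce were present in CC of all classifications. PTGS2, the cyclooxygenase of ovulation, had 1959 ± 1018 CPM over small pools, 1803 ± 1378 CPM over large and 1914 ± 703 CPM over spontaneous ones (SD), and TNFAIP6 1376 ± 430, 1480 ± 766 and 1596 ± 261 CPM. HAS2, which makes the hyaluronan of the cumulus matrix, had 55.8 ± 45.5, 74.2 ± 33.9 and 101 ± 62.4 CPM. Of 14 genes tested in CC, 1 was called from small to large, 2 from small to spontaneous and 1 between large and spontaneous pools, all higher in the second group, beside 0.813, 2.38 and 1.66% of all transcripts. The list's medians were -0.03, 0.28 and 0.32, beside 0.05, 0.16 and 0.11 over all transcripts.

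VCAN, a matrix proteoglycan, rose from 13000 ± 3582 CPM in small to 21000 ± 4630 CPM in large pools (log2 fold change 0.71, SE 0.246, limma adjusted p = 0.999), a call lost in 8 of 12 fits with a pool left out (0.59 to 0.81). SCARB1, the receptor for high-density lipoprotein, rose from 388 ± 213 CPM in small to 711 ± 174 CPM in spontaneous pools (1.02, SE 0.307, limma adjusted p = 0.363). Its call was lost in 6 of 9 other alternatives, among them edgeR (0.65) and DESeq2 (0.64) on the recovered reads. With a pool left out it ranged from 0.81 to 1.245, and the call was lost without small replicate 4 or spontaneous replicate 5. EREG, a ligand of the epidermal growth factor receptor, had 8.98, 6.05, 15.1, 286 and 2.65 CPM in spontaneous pools, against 0 to 5.83 CPM in small and 0 to 12.1 CPM in large pools. Spontaneous replicate 4 was far above the others. EREG passed from small (2.62, SE 0.845, limma adjusted p = 0.39) and from large (3.21, SE 0.913, limma adjusted p = 0.549), and without that pool the values were 1.59, no longer passing, and 2.18, still passing. With a pool left out, the call from small was lost in 6 of 11 fits (1.59 to 3.16), and both calls were lost with no filter and in DESeq2.

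Genes of the growing follicle, which decline after the surge, had 3 calls in CC among 11 tested, all higher in the second group. There was 1 from small to large, 0 from small to spontaneous and 2 between large and spontaneous pools, beside 0.813, 2.38 and 1.66% of all transcripts, and the medians were 0.21, 0.49 and 0.16, beside 0.05, 0.16 and 0.11. HSD17B1, a steroid dehydrogenase of estradiol synthesis, rose from 16.9 ± 7.09 CPM in small to 36.2 ± 14.6 CPM in large pools (log2 fold change 1.05, SE 0.298, limma adjusted p = 0.999), and kept its call in all 12 fits with a pool left out and in the 9 other alternatives. INHA, the inhibin alpha subunit, rose from 1786 ± 886 CPM in large to 3243 ± 1214 CPM in spontaneous pools (0.89, SE 0.289, limma adjusted p = 0.567). CYP19A1, the aromatase, rose from 3.52 ± 3.19 to 11.7 ± 7.10 CPM in the same comparison (1.74, SE 0.582, limma adjusted p = 0.567), and 8 of its 9 other alternatives lost the call. With a pool left out, the call of INHA was lost in 7 of 11 fits (0.73 to 1.11) and that of CYP19A1 in 6 of 11 (1.39 to 1.985). INHA and CYP19A1 also belong to the cumulus and granulosa marker list, whose sum was 5287 to 8411 CPM in large and 7193 to 12130 CPM in spontaneous pools, and its part in these differences was not tested. Of the 10 calls of list genes in CC, 7 were lost after median-of-ratios scaling, 6 in edgeR, and 0 changed sign in any alternative. The calls kept under that scaling were HSD17B1 and both of EREG.

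STAR, the transporter that starts steroid synthesis, had 0.52 to 12.6 CPM in small and 0.852 to 12.3 CPM in large CC pools, and 5.64, 315, 10.2, 5.63 and 3.75 CPM in spontaneous pools. A single spontaneous pool, replicate 2, was high, and it is not the pool that was high in EREG. The 7 theca markers summed to 2984 CPM in that pool against 270 to 1329 CPM in the other CC pools, and the white blood cell markers were at their CC maximum there, 377 CPM. The theca sum was made up mainly of the collagen gene COL1A2, at 2117 CPM against 40.8 CPM or less elsewhere, and COL3A1 was at 217.9 CPM against 24.3 CPM or less. INSL3, a hormone of theca cells, was at 176 CPM there and CYP17A1, a steroidogenic enzyme of theca, at 0.585 CPM, both inside the range of the other pools. The part of these markers in the STAR value was not tested. STAR, HAS2 and PTGS2 were also found in oocytes, at 344 to 409, 185 to 198 and 153 to 179 CPM over the class means, with no call. The LH receptor gene LHCGR was listed at 0 in all but 1 oocyte pool, at 0.0845 CPM there. LHCGR had no row under its symbol in CC, and PGR had none in either cell type, so these levels were not analysed here. In oocytes 0 genes of these lists were called.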

How the data were processed

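RNA of pools of 4 oocytes or of the CC of 4 complexes was amplified to cDNA and sequenced. The authors trimmed reads with fqtrim, aligned them with Hisat2 to the bovine genome UMD3.1 and used featureCounts on Ensembl genes. The unit deposited is CPM, in 2 tables, 16 oocyte and 17 CC pools, scaled separately by the authors. Versions are not given in the sources used here. Columns were matched to pools by name, and 0 were left unmatched. Symbols came from the tables, in which 2667 CC and 1760 oocyte rows have none. No genome or sequence table of this build was used, so no sequence or coordinate is printed. Without gene lengths, CPM of different genes that are named together or summed are not corrected for length, and levels were not tested between genes.

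From the CPM, whole reads were recovered (100% of values within 0.02 reads). Transcripts that reached 5 CPM in 5 or more CC pools (9712) or 4 or more oocyte pools (10076) were tested with limma 3.58.1 and a mean-variance trend on log2(CPM + 1), two-sided, between the pools of 2 classifications. Fold changes are on that scale and understate changes of low transcripts. A nominal p of 0.01 or less was a call. In oocytes, a call against small pools also had to hold without small replicate 3, as in the study's methods. Adjusted p-values (Benjamini-Hochberg) cover all transcripts tested. Exact permutation tests of mean CPM were run for each member, 48 in all, and permutation tests of correlations used 100000 draws within classification.

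Alternatives left out the filter, replaced it by a mean of 1 CPM or more, lowered the pseudocount to 0.1, scaled by median of ratios, left 13 mitochondrially encoded genes out of the CPM, fitted the 3 classifications together, or added the replicate number as a block. Others were edgeR 4.0.16 and DESeq2 1.42.0 on recovered reads, and each pool left out in turn. Tests were tried on simulated data first. The members and gene lists were chosen with earlier results of these data known. Named beside the members are list genes that were called, 7 known targets and the 2 transcripts most like each member, and single marker genes were picked for naming after their values were seen. Member fold changes are given one by one where limma p was under 0.2, a rule set after values were seen, and the others as ranges or p-values. Nothing states that pools came from separate collections, so p-values measure the spread between these pools. R 4.3.3, Python 3.11.15, pandas 2.3.3, scipy 1.17.1 and matplotlib 3.10.9 were used.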

Additional observations from a re-analysis of the deposited data

Results flagged for a closer look

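In 8 of 48 groups of pools (a gene in a classification and cell type), 1 pool lay far from the rest by Dixon's test. The nominal rate of that test, about 1 of 20 groups, holds for independent and normally distributed values. Here the same pools recur across genes and several genes are low and skewed, so the count cannot be judged against that rate. In CC these were EGR1 in small replicate 4, at 801 CPM, and NRIP1 in large replicate 2, at 255.6 CPM. In oocytes, small replicate 3 was far from the rest for FOS (9.13 CPM), GATA4 (31.7 CPM) and RUNX2 (7.18 CPM). Large replicate 6 was so for GATA4 (89.9 CPM) and RUNX2 (30.7 CPM), and small replicate 2 for RUNX1 (11.6 CPM). Small replicate 3 and large replicate 6 had 712 and 833 CPM of summed cumulus and granulosa markers, and small replicate 3 had the fewest reads of the oocyte pools, 7664375. The part of these in the outlying values was not tested.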

How the results depend on the processing

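The count of genes called was 0 in each of the 6 comparisons and became 1 under some alternatives. In CC it was 1 from small to large (GATA4) after median-of-ratios scaling, in the fit of 3 classifications, with the replicate block and in DESeq2, and 1 in DESeq2 from small to spontaneous (EGR1) and from large to spontaneous (GATA4). In oocytes it was 1 (NR4A1) from small to spontaneous with no filter, median-of-ratios scaling, 3 classifications in one fit, edgeR and DESeq2. From large to spontaneous it was 1 (NR4A1) in those 5 and with a pseudocount of 0.1, a mean of at least 1 CPM and CPM without mitochondrially encoded genes. With single pools left out it ranged from 0 to 1 for small to large in CC and for both oocyte comparisons with spontaneous pools, and stayed 0 in the other 3 comparisons. The cause was not tested. Small to large in oocytes gave 0 under every alternative. Of the 10 fold changes of members given one by one, 0 changed sign under any alternative, and of the 35 others 23 changed sign under at least 1 and 0 were called. The count of correlated pairs stayed 0 after median-of-ratios scaling and without small CC replicate 3.

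Between classifications, replicate numbers share no stated source. Within a cell type, the deviations of same-numbered pools of different classifications had r from -0.19 to 0.224. Such weak values cannot show whether same-numbered pools shared a source, since a source with a small effect would also give them. The main tests did not pair pools by number. The pairing of CC and oocyte pools by complex was neither used nor checked here. With the replicate block the count moved from 0 to 1 for small to large in CC (GATA4, 0.54) and stayed 0 in the other 5 comparisons.

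Depth limits RUNX1 and NR4A1 in CC, at 11 to 87 and 6 to 98 reads a pool, and 4 spontaneous oocyte pools allow no permutation p below 0.00952.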
